A study of Mus musculus with 6 samples.

Results

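Collagens, laminins, integrins and fibronectin were examined in neuromesodermal progenitors (NMPs), the caudal cells that supply both spinal cord and presomitic mesoderm, after a short exposure to retinoic acid (RA). A gene was included when its symbol had the form of a collagen chain (Col, number, a, number), a laminin chain (Lama, Lamb or Lamc with a number) or an integrin subunit (Itga or Itgb), or was Fn1. This rule uses names and no measured value, and it found 82 of the 20631 genes in the files, namely 44 collagen, 11 laminin and 26 integrin genes (18 alpha and 8 beta subunits) and Fn1. They cover 111 of the 30352 RefSeq transcripts, and 20 of the 82 genes have several transcripts.

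The NMPs were made from mouse embryonic stem cells (ESCs) over 3 days, with bFGF for 2 days and then bFGF and the WNT agonist CHIR99021 for 1 day. They were then kept for 2 h in N2B27 medium without bFGF or CHIR99021, with DMSO vehicle (the control), 25 nM RA or 1 µM RA, in 2 libraries per group. All groups shared the retinoid-free B27 supplement, so that the control had neither RA nor its precursors. The labels give the strain as 129 R1, whereas the methods name C57BL/6 ESCs, and the sources do not resolve this. The cells are a culture model with no surrounding embryo, the ESCs had been maintained on fibroblast feeders before the derivation on gelatin-coated plates, and the duplicates are separate dishes of 1 experiment, so p-values measure the spread between dishes.

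Collagens, laminins and fibronectin are secreted and assembled into the extracellular matrix outside the cell. Type IV collagen and laminin form the sheets called basement membranes, fibronectin and the fibrillar collagens form fibrils, and integrins are membrane receptors, each made of an alpha and a beta subunit, that hold cells to these proteins. In the caudal embryo a fibronectin and laminin matrix surrounds the presomitic mesoderm and the forming neural tube, and integrins on the cells there assemble fibronectin into fibrils.

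Fibronectin had the highest summed count of all 82 genes, and its transcripts differ by exons that are kept or skipped. Fn1 lies on chromosome 1 of mm10 (GRCm38), from 71585473 to 71653234 on the minus strand, and 7 RefSeq transcripts of 7522 to 8425 bases are listed for it. Only the longest of the 7 keeps the EIIIB exon (273 bases, exon 25 of 46 in that transcript), and 4 of the 7 keep the EIIIA exon (270 bases, exon 33). The V exon (467 bases, exon 40) is kept whole in 3, lacks 75 bases in 2 and lacks 360 bases in 2. Below, the coding sequence of both skipped exons is shown because the estimates of the Fn1 transcripts rest on them, as is the stretch of exon 30 that holds the Arg-Gly-Asp (RGD) codons in capitals, the site that the integrins of Itga5, Itgav and Itga8 bind. A second in-frame run of RGD codons, not shown, lies in the V exon, so that the longest transcript holds 2. All are read 5′ to 3′ on the transcript strand from the GRCm38 transcripts of GENCODE M21.
EIIIB exon, chr1:71613763-71614035, minus strand: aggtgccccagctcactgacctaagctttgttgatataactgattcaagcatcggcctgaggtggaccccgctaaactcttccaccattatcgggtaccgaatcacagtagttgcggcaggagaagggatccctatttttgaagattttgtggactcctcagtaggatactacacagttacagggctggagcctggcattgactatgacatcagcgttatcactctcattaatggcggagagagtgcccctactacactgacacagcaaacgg
EIIIA exon, chr1:71603660-71603929, minus strand: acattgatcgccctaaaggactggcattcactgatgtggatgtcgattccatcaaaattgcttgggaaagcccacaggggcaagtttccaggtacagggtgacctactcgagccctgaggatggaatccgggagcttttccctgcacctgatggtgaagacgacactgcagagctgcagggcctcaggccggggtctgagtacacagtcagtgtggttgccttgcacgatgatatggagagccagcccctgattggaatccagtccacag
RGD site, chr1:71606719-71606781, minus strand: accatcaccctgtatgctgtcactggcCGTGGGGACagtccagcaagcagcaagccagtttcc

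Each library gave estimated counts, which are read counts that the authors divided among the transcripts of a gene by expectation-maximization, and RPKM, which divides them by the transcript's length and the library's reads. Both were summed per gene, so that a level in RPKM can be compared between genes and a count cannot. Estimated counts added up to 31753556 to 42029348 per library, and the 82 genes took 0.262% and 0.268% of them in the DMSO libraries, 0.256% and 0.258% in those given 25 nM RA, and 0.238% and 0.241% at 1 µM RA. As a check of the labels, the RA target genes Rarb, Cyp26a1, Stra8 and Dhrs3 all rose at both doses, and their summed RPKM was 53.4 and 52.9 in DMSO, 197.6 and 196.7 at 25 nM and 312.1 and 300.4 at 1 µM RA. T (Brachyury), which marks NMPs and nascent mesoderm, had a mean of 375.2 RPKM in DMSO, and Pou5f1, a pluripotency gene, had 444.9 RPKM.

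A total of more than 60 estimated counts over the 6 libraries was reached by 66 of the 82 genes (80.5%), against 14851 of all 20631 genes (72.0%). By family, 35 of 44 collagen genes (79.5%), 9 of 11 laminin genes (81.8%), 21 of 26 integrin genes (80.8%) and Fn1 passed. Leaving out any 1 library left the number at 66.

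Within the collagens, all 11 fibrillar chains and all 9 fibril-associated chains exceeded 60 counts, whereas only 3 of 6 type IV chains and 3 of 6 type VI chains did. Among the integrin alpha subunits, 4 of 4 RGD-binding and 3 of 3 laminin-binding subunits passed, against 2 of 5 subunits that are otherwise known from leukocytes. The 16 genes with 60 counts or fewer were Col4a3, Col4a4, Col4a6, Col6a3, Col6a4, Col6a6, Col15a1, Col17a1, Col28a1, Itga2, Itgad, Itgal, Itgax, Itgb6, Lama2 and Lamc3. Just below the threshold were Col6a3 with 53 and Col4a6 with 56 counts, and just above it were Col10a1 and Itga11, both with 85.

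Transcript length bears on this count, because a long transcript yields more reads at the same RPKM. The longest transcript of the 82 genes had a median of 5626 bases against 2487 for all genes, and ranged from 2674 bases (Itgb7) to 11719 bases (Col12a1). For that reason 60 counts correspond to 0.0191 RPKM in Col12a1 and to 0.0837 RPKM in Itgb7. A mean above 0.1 RPKM, a cut-off nearer to 60 counts, was reached by 63 of the 82 genes (76.8%), against 73.2% of all genes. At the stricter cut-off of 1 RPKM the order turned, with 27 of the 82 genes (32.9%) against 53.9% of all genes. Above 1 RPKM were 11 of 44 collagen (25.0%), 5 of 11 laminin (45.5%) and 10 of 26 integrin genes (38.5%) and Fn1. Col24a1, Col5a3 and Itga11 exceeded 60 counts with a mean RPKM not above 0.1, and the ranks of Col12a1 and Lama3 by count and by RPKM lay 10 or more places apart.

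**Figure D1:**
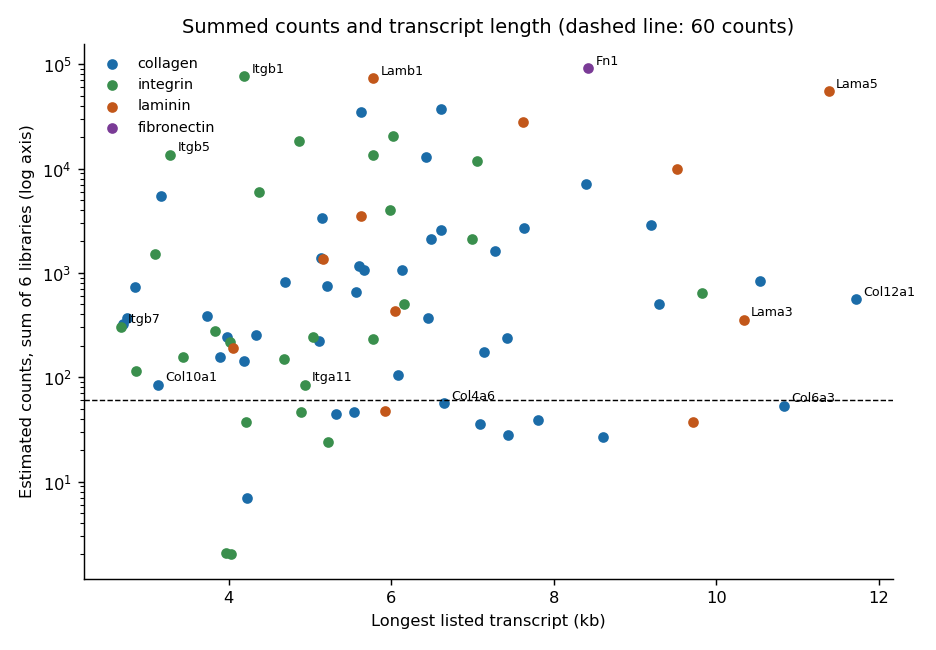
Each point is 1 of the 82 genes, with the length of its longest listed transcript in kb on the x axis and its estimated counts summed over the 6 libraries on a logarithmic y axis, coloured by family. The dashed line marks 60 counts, above which 66 points lie; Fn1 is the highest with 91323 counts and Col12a1 is the longest.

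Few of these genes carried most of the signal. The 10 genes with the most counts (Fn1, Itgb1, Lamb1, Lama5, Col4a1, Col18a1, Lamc1, Itga6, Itga3 and Itga8) held 80.0% of all counts of the 82 genes, and 9 of these 10 were also among the 10 highest by RPKM, where Itgb5 replaced Itga8. By mean RPKM in DMSO the order was Itgb1, the beta subunit shared by most matrix-binding integrins (67.3 ± 0.82, SD, n = 2), Lamb1 (51.3 ± 0.51), Fn1 (49.5 ± 2.2), Col18a1, the basement membrane collagen that releases endostatin (25.8 ± 0.69), Col4a1 (20.8 ± 1.1), Lama5 (17.0 ± 0.43), Itgb5 (15.96 ± 0.23) and Lamc1 (13.9 ± 0.20). Lamb1 and Fn1 overlapped in their DMSO libraries (51.7 and 51.0 against 48.0 and 51.1 RPKM) and so cannot be placed in order, while Itgb1 stood above both of them in each library.

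Of the summed integrin beta RPKM, Itgb1 made up 78.1% and 77.3% in DMSO. The alpha subunits were more evenly spread, with Itga6 at 25.2% and 25.6%, Itga3 at 21.97% and 21.28% and Itga8 at 16.4% and 16.9% of the summed alpha RPKM. Lamb1 exceeded Lamc1, its partner in most laminin trimers, 3.68 and 3.71 times in DMSO, and Col4a1 exceeded Col4a2 2.70 and 2.77 times. Both type IV genes lie head to head on chromosome 8, with Col4a1 ending at 11312826 and Col4a2 starting at 11312829, and their chains join in 1 trimer. Lama5 was 3.93 and 4.05 times Lama1, which lies on chromosome 17. Of the other type IV chains, Col4a5 had 1.26 and 1.29 RPKM in DMSO, and Col4a3 and Col4a4, known from the kidney filter, had no DMSO value above 0.0242.

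**Figure D2:**
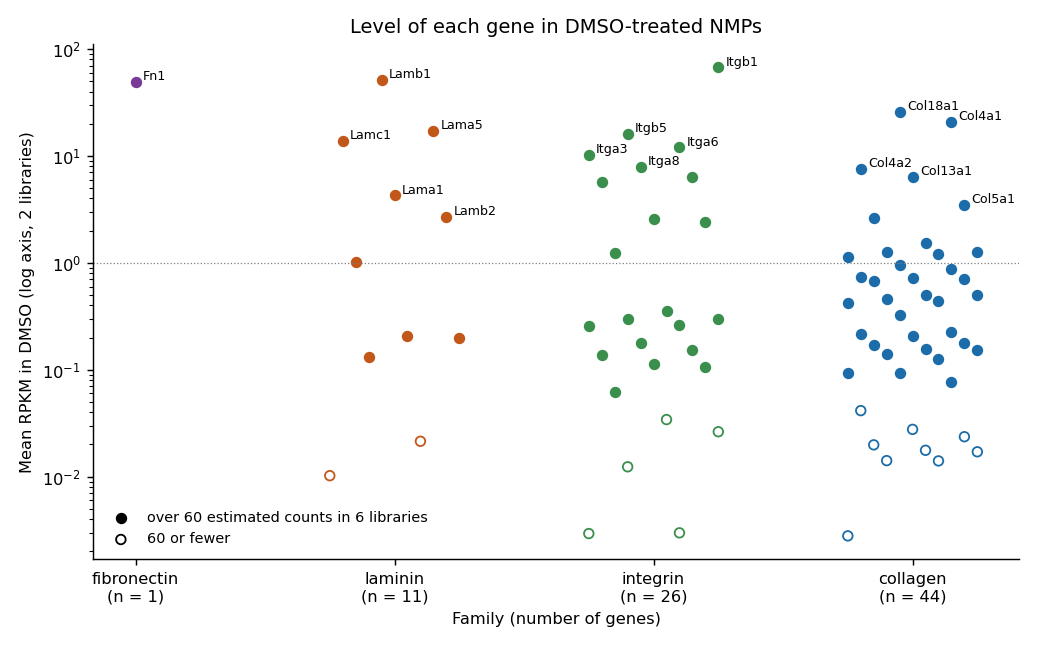
Mean RPKM of the 2 DMSO libraries on a logarithmic axis for each gene (points), by family, filled where the gene had more than 60 estimated counts over the 6 libraries and open where it had 60 or fewer. Levels run from 67.3 RPKM for Itgb1 to below 0.01 for a few leukocyte integrin and collagen genes, and the dotted line marks 1 RPKM.

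For the comparison of treatments, counts per gene were rounded and fitted in edgeR for all genes and all 6 libraries together, with TMM normalization and the likelihood ratio test, and a gene was called at a Benjamini-Hochberg adjusted p under 0.1. Of the 82 genes, 69 passed edgeR's filter on low counts and were tested among 15143 genes. Log2 fold changes refer to counts and are given with the standard error (SE) of the fit, while levels are RPKM. Both RA groups were compared with the same 2 DMSO libraries, so their changes are not independent of each other. In these bulk samples, fewer cells of a type and less RNA per cell cannot be told apart.

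With 25 nM RA, 11 of the 69 tested genes (15.9%) were called, 5 higher and 6 lower, against 8.05% of all genes tested (4.5% higher and 3.55% lower). With 1 µM RA, 19 of 69 (27.5%) were called, 6 higher and 13 lower, against 19.7% of all genes (8.54% higher and 11.2% lower). Between the doses, 7 of 69 (10.1%) were called, 1 higher and 6 lower at 1 µM, against 3.41% of all genes (0.792% higher and 2.62% lower). The median log2 fold change of the 69 genes was -0.02 at 25 nM and -0.06 at 1 µM RA, and that of all genes was -0.00051 and 0.00128. The quasi-likelihood test of edgeR called 9, 20 and 4 of the 69 in the 3 comparisons, against 6.91%, 19.2% and 2.22% of all genes. DESeq2 called 5, 10 and 2, against 3.9%, 11.7% and 1.43% of the 14555, 13675 and 11033 genes to which it gave an adjusted p. Between the doses it gave none to some of the 69 genes, so those counts and shares rest on unlike totals.

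The counts by family stand beside 8.05% of all genes tested called at 25 nM and 19.7% at 1 µM RA. Of 10 tested laminin genes, 5 were called at each dose (50%), 2 higher and 3 lower at 25 nM and 1 higher and 4 lower at 1 µM RA. Of 21 tested integrin genes, 4 were called at 25 nM (19%, 2 higher, 2 lower) and 8 at 1 µM RA (38.1%, 4 higher, 4 lower). Of 37 tested collagen genes, 1 was called at 25 nM (2.7%, higher) and 5 at 1 µM RA (13.5%, 1 higher, 4 lower), both shares below those of all genes. The summed RPKM of the laminin genes was 91.1 and 90.5 in DMSO, 88.7 and 86.8 at 25 nM and 79.3 and 82.8 at 1 µM RA. For the integrin genes it was 134.6 and 133.4, then 138.4 and 139.5, then 143.5 and 143.4. The collagen sum lay between 79.1 and 85.2 in all 6 libraries, and its 3 groups overlapped.

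Fn1 fell with dose. Its level was 48.0 and 51.1 RPKM in DMSO, 39.2 and 42.8 at 25 nM and 32.1 and 33.1 at 1 µM RA. The 3 groups did not overlap, and both 1 µM libraries were the lowest. The log2 fold change was -0.28 ± 0.06 (SE, adjusted p = 3.2e-05) at 25 nM and -0.61 ± 0.06 (adjusted p = 4.3e-25) at 1 µM RA, a change of -17.7% and -34.7%. Between the doses the change was -0.33 ± 0.06 (adjusted p = 2.5e-06), and all 3 calls held when any 1 library was left out. Fn1 shares 292 of its exon bases with the antisense gene Apol7d, and the use of strand in counting is not given in the sources used here.

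The fall was seen in the longest Fn1 transcript, and its share of the gene stayed between 62.2% and 66.4%. This transcript, the only listed one with EIIIB, had 31.8 and 33.9 RPKM in DMSO, 25.7 and 26.6 at 25 nM and 20.8 and 20.7 at 1 µM RA. Tested among the transcripts as deposited, it fell by 0.33 on the log2 scale at 25 nM (SE 0.06, adjusted p = 2.1e-06) and by 0.67 at 1 µM RA (SE 0.06, adjusted p = 7.1e-27). At 25 nM it was the only 1 of the 7 that was called. At 1 µM RA, 6 of the 7 transcripts were called lower by the likelihood ratio test and 4 by the quasi-likelihood test. The exception to the 6, which lacks EIIIB and EIIIA and keeps the whole V exon, had 3.75 and 3.81 RPKM in DMSO and 2.88 and 3.17 RPKM at 1 µM RA (adjusted p = 0.18). These calls are not independent, because the 7 transcripts divide reads of 1 gene. Among all collagen, laminin, integrin and Fn1 transcripts, 90 were tested. At 1 µM RA the likelihood ratio test called 17 of the 90, 12 of them lower, and the quasi-likelihood test called 12. As a share of the Fn1 RPKM the longest was 66.2% and 66.4% in DMSO, 65.7% and 62.2% at 25 nM and 65.0% and 62.6% at 1 µM RA. Transcripts with EIIIA made up 85.7% and 86.4%, then 85.4% and 82.5%, then 84.3% and 83.5%. Those with the whole V exon made up 83.2% to 84.8% over the 6 libraries. The shares with EIIIB and with EIIIA were lower in all 4 RA libraries than in both DMSO libraries, and this difference was not tested. They depend on how the authors' estimation divided 50-base reads among 7 overlapping transcripts.

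**Figure D3:**
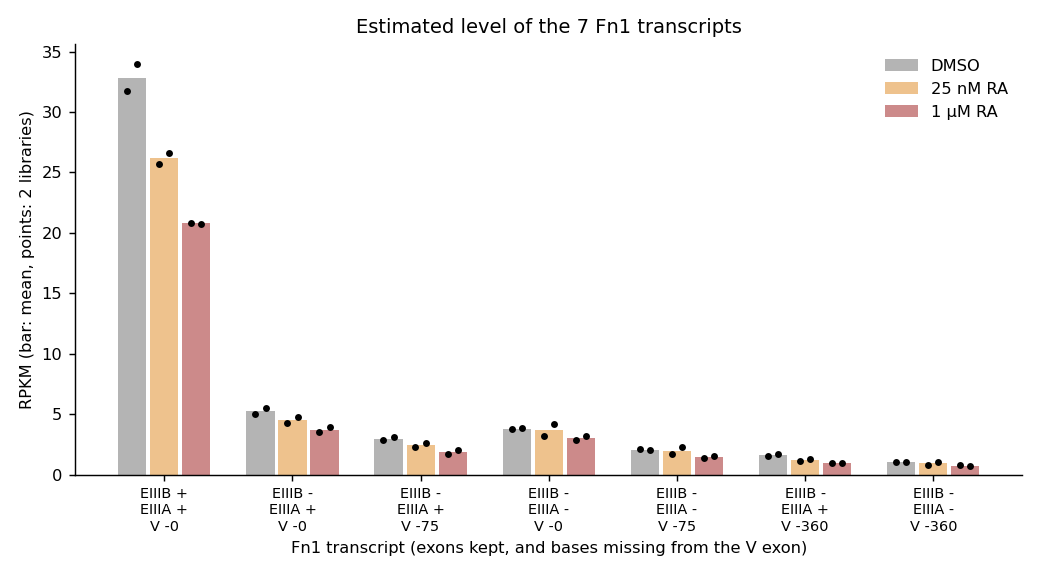
Estimated RPKM of the 7 listed Fn1 transcripts (bars, mean of 2 libraries; points, each library) with DMSO, 25 nM RA and 1 µM RA, ordered by transcript length, with the exons each one keeps (+) or lacks (-) and the bases missing from its V exon under the axis. The transcript that keeps EIIIB, EIIIA and the whole V exon is the highest in each group, at 31.8 and 33.9 RPKM in DMSO and 20.8 and 20.7 RPKM with 1 µM RA.

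Among the laminin chains, both abundant beta chains and Lama1 fell while Lama5 rose at the lower dose alone. Lamb1, a chain of most embryonic laminins (chromosome 12, 31265294 to 31329639, plus strand), had 51.7 and 51.0 RPKM in DMSO, 45.7 and 45.8 at 25 nM and 43.0 and 44.8 at 1 µM RA. Every RA library was below both DMSO libraries. Its log2 fold change was -0.17 ± 0.05 (adjusted p = 0.0070) at 25 nM and -0.23 ± 0.05 (adjusted p = 1.8e-05) at 1 µM RA. The 25 nM call was lost without DMSO replicate 1, DMSO replicate 2 or 25 nM replicate 1 (adjusted p = 0.13, 0.11 and 0.14).

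Lamb2, a beta chain known from the neuromuscular junction and the kidney, had 2.66 and 2.69 RPKM in DMSO, 2.34 and 2.24 at 25 nM and 1.92 and 2.22 at 1 µM RA. It fell by 0.23 on the log2 scale at 25 nM (SE 0.08, adjusted p = 0.050) and by 0.38 at 1 µM RA (SE 0.08, adjusted p = 3.8e-05). Lama1, the alpha chain of the earliest embryonic basement membranes, had 4.25 and 4.28 RPKM, then 3.98 and 3.63, then 3.44 and 3.69. For both genes all RA libraries lay below both DMSO libraries. The fall of Lama1 was 0.17 (SE 0.06, adjusted p = 0.054) and 0.27 (SE 0.06, adjusted p = 0.00012) on the log2 scale. The 1 µM calls of Lamb1, Lamb2 and Lama1 held without any 1 library. At 25 nM, Lamb2 lost its call without any 1 of the 4 libraries compared (adjusted p = 0.15 to 0.42), and Lama1 without either DMSO library or 25 nM replicate 2 (adjusted p = 0.23, 0.37 and 0.66).

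Lama5, the alpha chain of the laminin that the integrin of Itga3 binds, followed another course. It had 16.7 and 17.3 RPKM in DMSO, 20.8 and 19.2 at 25 nM and 16.6 and 17.5 at 1 µM RA. Only the 25 nM libraries stood apart, above the other 4, and DMSO and 1 µM RA overlapped. It rose at 25 nM by 0.23 ± 0.05 on the log2 scale (adjusted p = 0.00055), was not called at 1 µM RA (adjusted p = 0.96), and was lower at 1 µM than at 25 nM by -0.23 ± 0.05 (adjusted p = 0.0014). The difference between the doses was lost without 25 nM replicate 1 (adjusted p = 0.19), the library with the higher value. The ratio of Lama5 to Lama1 RPKM, 3.93 and 4.05 in DMSO, was 5.22 and 5.29 at 25 nM and 4.82 and 4.74 at 1 µM RA.

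Lamc1, the gamma chain that joins these beta and alpha chains, had 14.0 and 13.8 RPKM in DMSO, 14.2 and 14.4 at 25 nM and 12.90 and 12.95 at 1 µM RA. It was not called against DMSO at either dose (adjusted p = 0.85 and 0.11). It was lower at 1 µM than at 25 nM RA by -0.15 ± 0.05 (adjusted p = 0.076), but leaving out any 1 of the 6 libraries ended that call (adjusted p = 0.13 to 0.44), and at 1 µM against DMSO the quasi-likelihood test called it (adjusted p = 0.080).

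Lama4, a chain of vessel basement membranes, was low and rose, from 0.183 and 0.215 RPKM in DMSO to 0.292 and 0.335 at 25 nM and 0.274 and 0.309 at 1 µM RA. The log2 fold changes were 0.67 ± 0.19 (adjusted p = 0.0093) and 0.55 ± 0.19 (adjusted p = 0.032), lost without DMSO replicate 1 (adjusted p = 0.24 and 0.30) or without replicate 2 of the RA group (adjusted p = 0.30 and 0.20). Lamb3, a chain of skin laminin, had 0.212 and 0.205 RPKM in DMSO, 0.200 and 0.169 at 25 nM and 0.120 and 0.141 at 1 µM RA. It was called at 1 µM only (-0.68 ± 0.28, adjusted p = 0.068), and not without any 1 of the 4 libraries compared (adjusted p = 0.13 to 0.34). Both genes rest on few reads, with 432 and 189 counts in total.

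The integrin receptors changed in both directions. Itga3 (chromosome 11, 95044475 to 95076811, minus strand), a laminin receptor subunit that pairs with Itgb1, had 10.47 and 10.03 RPKM in DMSO, 17.4 and 15.2 at 25 nM and 15.8 and 17.4 at 1 µM RA. All 4 RA libraries lay above both DMSO libraries, and the doses overlapped. It rose by 0.66 ± 0.06 on the log2 scale at 25 nM (adjusted p = 1.5e-22) and by 0.68 ± 0.06 at 1 µM RA (adjusted p = 2.9e-24), which is 58.2% and 60.5%. The doses were not called different (adjusted p = 0.93), and both calls held without any 1 library.

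Itga6, the other abundant laminin receptor subunit, had 12.001 and 12.04 RPKM in DMSO, 12.95 and 13.7 at 25 nM and 14.2 and 12.99 at 1 µM RA. It was called at 1 µM RA (0.17 ± 0.06, adjusted p = 0.027) and not at 25 nM (adjusted p = 0.13), and the call was lost without either DMSO library or 1 µM replicate 1 (adjusted p = 0.21, 0.13 and 0.40). In DMSO Itga3 stood below Itga6 in both libraries (0.873 and 0.833 times its RPKM), and in all 4 RA libraries it stood above it (1.11 to 1.35 times). Itga7, a laminin receptor subunit known from muscle, was at 0.227 and 0.294 RPKM in DMSO, 0.188 and 0.201 at 25 nM and 0.143 and 0.153 at 1 µM RA. It fell at 1 µM by 0.80 on the log2 scale (SE 0.26, adjusted p = 0.016), a call that was lost without DMSO replicate 2 or 1 µM replicate 1 (adjusted p = 0.23 and 0.13). Itga7 had 217 counts in total, so that of the 3 laminin-binding subunits the abundant pair rose and the scarce one fell at 1 µM RA.

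Of the RGD-binding subunits, Itga5 fell and Itga8 rose. Itga5, which forms the main fibronectin receptor with Itgb1, had 5.66 and 5.77 RPKM in DMSO, 4.87 and 4.85 at 25 nM and 4.68 and 4.70 at 1 µM RA. All 4 RA libraries were lower than both DMSO libraries. The log2 fold change was -0.24 ± 0.06 (adjusted p = 0.0032) and -0.29 ± 0.06 (adjusted p = 4.8e-05), and without DMSO replicate 2 the 25 nM call was lost (adjusted p = 0.10). Its ligand gene Fn1, with the RGD codons shown above, fell in the same comparisons.

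Itga8, whose integrin binds nephronectin as well as fibronectin, had 7.81 and 7.99 RPKM in DMSO, 8.48 and 8.83 at 25 nM and 9.65 and 10.04 at 1 µM RA. The 3 groups did not overlap and lay in the order of dose. It was called at 1 µM RA (0.31 ± 0.05, adjusted p = 3.1e-07) and not at 25 nM (adjusted p = 0.18), and the doses differed by 0.18 ± 0.05 (adjusted p = 0.039). The latter was lost without 25 nM replicate 1 or 1 µM replicate 2 (adjusted p = 0.52 and 0.18). Itga8 shares 5.05% of its exon bases with the antisense gene E030013I19Rik, whose reads cannot be told apart from its own if strand was not used.

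Itgav, which serves several beta subunits, was not called at either dose (adjusted p = 0.72 and 0.26) and lay between 5.74 and 6.50 RPKM. Itga2b, the platelet subunit, was called higher at both doses on 156 counts in total, from 0.107 and 0.103 RPKM in DMSO to 0.159 and 0.247 at 25 nM and 0.215 and 0.185 at 1 µM RA. Its log2 fold changes were 0.96 ± 0.33 (adjusted p = 0.042) and 0.91 ± 0.33 (adjusted p = 0.035). The quasi-likelihood test did not call it at 25 nM (adjusted p = 0.10). Leaving out DMSO replicate 1 ended both calls (adjusted p = 0.22 and 0.16), as did DMSO replicate 2 (adjusted p = 0.21 and 0.15). So did leaving out 25 nM replicate 2 (adjusted p = 0.75) and 1 µM replicate 1 (adjusted p = 0.24), each in its own comparison. Itga9, which binds tenascin-C and the EIIIA part of fibronectin, fell at 1 µM RA, from 1.25 and 1.21 RPKM to 0.945 and 1.07 (-0.29 ± 0.09, adjusted p = 0.013), with 1.13 and 1.17 RPKM at 25 nM, also below both DMSO libraries (-0.10 ± 0.09, adjusted p = 0.73). The doses were not called different (-0.19 ± 0.09, adjusted p = 0.36). The call at 1 µM was lost without DMSO replicate 1 or 1 µM replicate 1 (adjusted p = 0.13 and 0.25).

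Of 7 tested beta subunits, Itgb8 was the only one called. That is 14.3% at each dose, against 8.05% of all genes tested at 25 nM and 19.7% at 1 µM RA, so the lack of other calls does not set the beta subunits apart. Itgb8 (chromosome 12, 119162803 to 119238276, minus strand), the partner of Itgav known for releasing active TGF-beta from its latent complex, had 2.26 and 2.50 RPKM in DMSO, 1.57 and 1.50 at 25 nM and 1.46 and 1.62 at 1 µM RA. Both RA groups overlapped each other and lay below both DMSO libraries. The log2 fold change was -0.64 ± 0.11 at either dose (adjusted p = 8.5e-08 at 25 nM and 5.5e-08 at 1 µM RA), a change of -35.8% and -35.6% that held without any 1 library. The doses were not called different (adjusted p = 0.99). Itgb1 was at 65.6 to 70.9 RPKM and Itgb5, the vitronectin receptor subunit, at 14.6 to 16.1 RPKM over the 6 libraries, with adjusted p from 0.40 to 0.96 against DMSO.

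**Figure D4:**
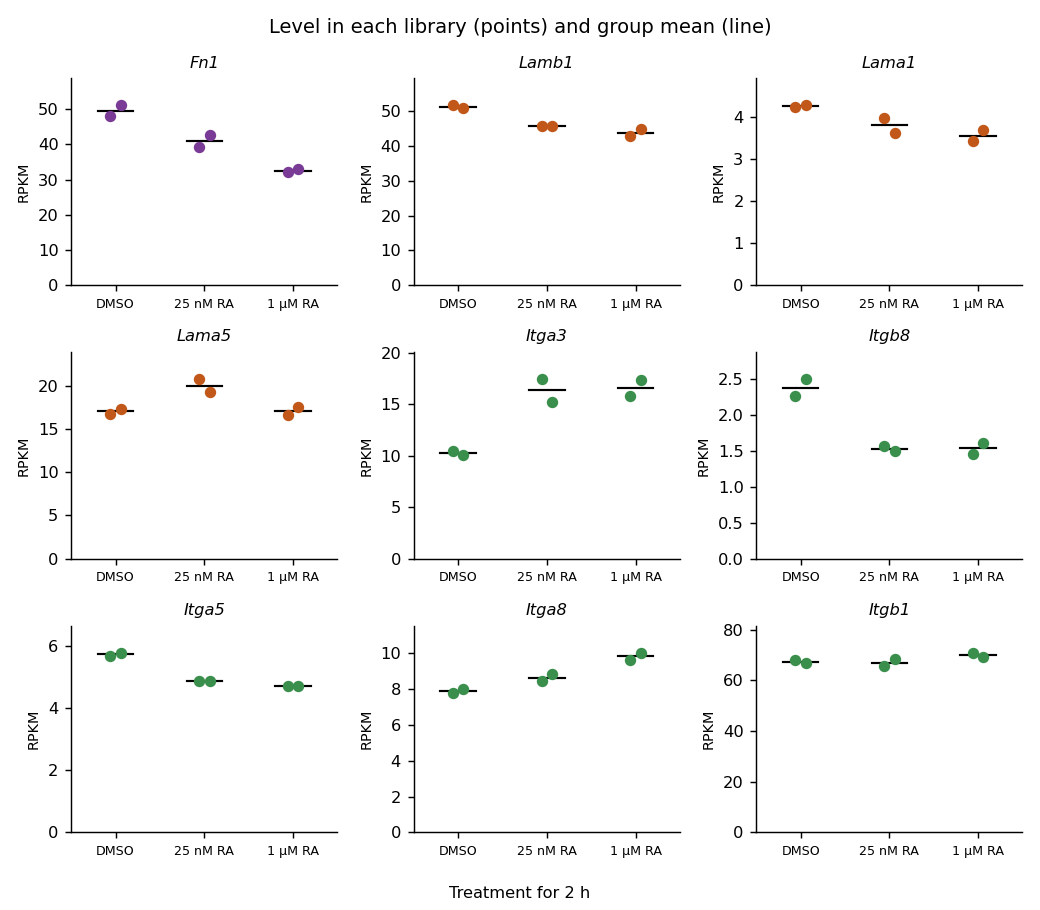
RPKM in each of the 6 libraries (points) and group means (lines) for Fn1, 3 laminin chains and 5 integrin subunits, each on its own linear axis from 0, for DMSO, 25 nM RA and 1 µM RA. Fn1 steps down with dose, Itga3 and Itgb8 reach their level at 25 nM, Lama5 is higher at 25 nM alone, and Itgb1 stays between 65.6 and 70.9 RPKM.

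Among the collagens, the called falls were all in fibrillar chains and were found at 1 µM RA. Col5a1, the chain that starts collagen fibrils, had 3.56 and 3.45 RPKM in DMSO, 3.26 and 3.17 at 25 nM and 2.65 and 2.95 at 1 µM RA. The groups did not overlap and followed the dose downwards. The fall at 1 µM was 0.33 on the log2 scale (SE 0.06, adjusted p = 3.1e-06) and held without any 1 library, the 25 nM change was not called (adjusted p = 0.26), and the difference between the doses (-0.20 ± 0.06, adjusted p = 0.065) was not called by the quasi-likelihood test (adjusted p = 0.12). Leaving out 1 library ended that last call in 5 of 6 cases, all but 1 µM replicate 2 (adjusted p up to 0.51).

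Both type I chains, which build the most common fibrils of connective tissue, were also lower at 1 µM RA. Col1a2 had 2.64 and 2.67 RPKM in DMSO, 2.38 and 2.57 at 25 nM and 2.23 and 2.18 at 1 µM RA, and fell at 1 µM by 0.27 on the log2 scale (SE 0.08, adjusted p = 0.0045), also without any 1 library. Col1a1 was lower in level, with 0.653 and 0.780 RPKM, then 0.764 and 0.665, then 0.530 and 0.494. Only its 1 µM libraries stood apart, below the others. It fell by 0.48 on the log2 scale both against DMSO (SE 0.15, adjusted p = 0.010) and against 25 nM RA (SE 0.15, adjusted p = 0.060), and the first call was lost without DMSO replicate 2 or 1 µM replicate 2 (adjusted p = 0.23 and 0.11), the second without any 1 of its 4 libraries (adjusted p = 0.11 to 0.52) and by the quasi-likelihood test (adjusted p = 0.14).

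Col2a1, the cartilage collagen that the notochord also makes, had 1.22 and 1.04 RPKM in DMSO, 1.08 and 0.963 at 25 nM and 0.899 and 0.918 at 1 µM RA. It fell at 1 µM by 0.33 on the log2 scale (SE 0.11, adjusted p = 0.025), and DMSO replicate 1 or either 1 µM library left out ended the call (adjusted p = 0.39, 0.12 and 0.11). Col3a1, a collagen of soft tissues, had 0.429 and 0.489 RPKM, then 0.561 and 0.468, then 0.344 and 0.380, and was called between the doses only (-0.50 ± 0.16, adjusted p = 0.065). The quasi-likelihood test did not call it (adjusted p = 0.15), nor did the fit without 25 nM replicate 1 or either 1 µM library (adjusted p = 0.60, 0.37 and 0.12).

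All 4 fibrillar genes called at 1 µM RA, of 11 tested (36.4%, against 19.7% of all genes), were lower. The median log2 fold change of the 11 was -0.28, with 9 of 11 below 0. Of the 9 fibril-associated chains none was called in any comparison, and of 4 tested type IV chains none was either, with Col4a1 between 19.8 and 21.6 RPKM and Col4a2 between 7.10 and 7.93 RPKM over the 6 libraries. The quasi-likelihood test and DESeq2 called none of these genes too, and 1 of them, Col19a1 at 25 nM, had an unadjusted likelihood ratio p under 0.05. Of all genes tested 8.05%, 19.7% and 3.41% were called in the 3 comparisons, so the lack of calls does not set so few chains apart. The fibril-associated chains, none with a mean above 1 RPKM, were also harder to call. Their median SE at 1 µM RA was 0.182, against 0.113 for the fibrillar chains. Col18a1 lay between 24.4 and 27.8 RPKM and was not called (adjusted p = 0.82 and 0.40). Col6a5 was the only collagen called higher, from 0.169 and 0.145 RPKM in DMSO to 0.240 and 0.220 at 25 nM and 0.260 and 0.193 at 1 µM RA (0.53 ± 0.19, adjusted p = 0.062, and 0.51 ± 0.19, adjusted p = 0.043). The quasi-likelihood test did not call it at 25 nM (adjusted p = 0.13). Its 25 nM call was lost without any 1 of the 4 libraries compared (adjusted p = 0.12 to 0.42), and its 1 µM call without DMSO replicate 2 or 1 µM replicate 1 (adjusted p = 0.28 and 0.54).

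**Figure D5:**
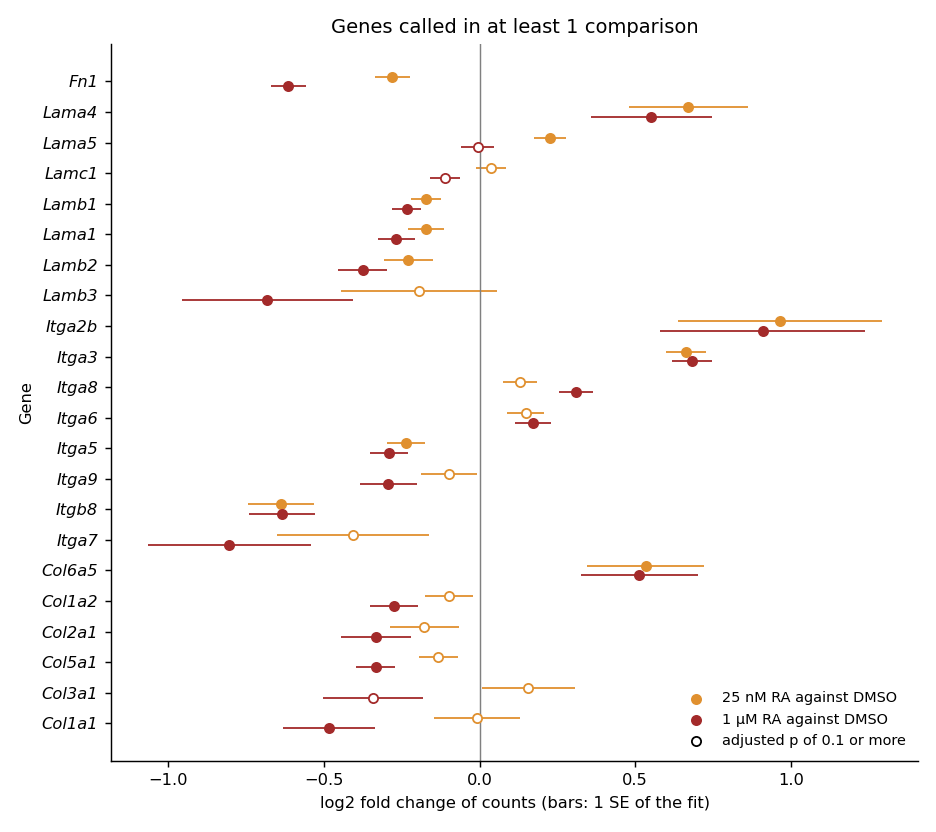
Log2 fold change of counts against DMSO (points, with bars of 1 SE of the fit) at 25 nM and 1 µM RA for the 22 genes called in at least 1 of the 3 comparisons, filled where the adjusted p was under 0.1 and open otherwise. Fn1 lies at -0.28 and -0.61 and Itga3 at 0.66 and 0.68, while Lama5 is at 0.23 with 25 nM and is not called with 1 µM RA.

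The calls that held without any 1 library were 4 of 11 at 25 nM (Fn1, Itga3, Itgb8 and Lama5), 10 of 19 at 1 µM RA (Fn1, Itga3, Itga5, Itga8, Itgb8, Lama1, Lamb1, Lamb2, Col1a2 and Col5a1) and 1 of 7 between the doses (Fn1). DESeq2's Wald test, applied to all 6 libraries, also called Fn1, Itga3, Itgb8, Lama5 and Lamb1 at 25 nM. At 1 µM RA it called Fn1, Itga3, Itga5, Itga6, Itga8, Itgb8, Lama1, Lamb1, Lamb2 and Col5a1, and between the doses Fn1 and Lama5. It gave no adjusted p for Col3a1 between the doses and did not call the others.

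Genes that work with these proteins were followed as lists, whose counts stand beside 8.05% of all tested genes called at 25 nM and 19.7% at 1 µM RA. Of 10 tested basement membrane partners, 1 was called at 25 nM (10%) and 7 at 1 µM RA (70%), with medians of -0.06 and -0.21 on the log2 scale. Agrn (agrin), a heparan sulfate proteoglycan, rose at both doses (0.38 ± 0.05 and 0.24 ± 0.05), and Hspg2 (perlecan, -0.44 ± 0.07), Fras1 (-0.31 ± 0.06) and Frem1 (-0.60 ± 0.13) were among the 6 that fell at 1 µM RA. Between the doses 4 were called, all lower at 1 µM, with Hspg2 and Fras1 among them. The fall with the smallest adjusted p in this list was that of Hspg2, from 2.92 and 3.28 RPKM in DMSO to 2.37 and 2.22 at 1 µM RA, with no overlap.

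Of 32 genes listed as modifying, folding or processing collagen, 27 were found in the files by symbol and 25 were tested, of which 4 were called at 25 nM (16%) and 5 at 1 µM RA (20%, close to the 19.7% of all genes), with medians of 0.02 and -0.03. Serpinh1, the collagen chaperone, rose at both doses (0.15 ± 0.05 and 0.12 ± 0.05), as did Loxl4, a lysyl oxidase (0.32 ± 0.10 and 0.35 ± 0.10), P4ha1, a prolyl hydroxylase subunit, rose at 1 µM RA (0.31 ± 0.07), and the procollagen proteases Adamts3 and Tll1 fell at both doses. Of 20 tested adhesion proteins inside the cell, 1 was called at 25 nM (5%) and 4 at 1 µM RA (20%), shares below and close to those of all genes, and all were lower, with medians of 0.01 and -0.08. Zyx (zyxin), found where integrins meet actin, was called lower at both doses (-0.18 ± 0.07, adjusted p = 0.096, and -0.48 ± 0.07, adjusted p = 2.1e-10). At 25 nM its libraries overlapped those of DMSO (26.5 and 23.2 against 30.3 and 25.9 RPKM), and the quasi-likelihood test did not call it (adjusted p = 0.12). Bcar1, Tns3 and Tln2 fell at 1 µM RA.

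Of 9 tested matrix receptors that are not integrins, 4 were called at 25 nM (2 higher) and 3 at 1 µM RA (all lower), with medians of -0.09 and -0.105. Ddr1, a collagen receptor kinase, fell from 12.2 and 12.6 RPKM in DMSO to 10.9 and 9.83 at 25 nM and 8.76 and 9.28 at 1 µM RA (-0.26 ± 0.06 and -0.47 ± 0.06), and Cd44, the hyaluronan receptor, fell at both doses (-0.47 ± 0.12 and -0.49 ± 0.12). Dag1 (dystroglycan) and Bcam, both laminin receptors, rose at 25 nM (0.17 ± 0.05 and 0.24 ± 0.06) and were not called at 1 µM RA (adjusted p = 0.51 and 0.28), and the doses were not called different (adjusted p = 0.26 and 0.34). Of 13 tested other matrix glycoproteins, 4 were called at 25 nM (1 higher) and 6 at 1 µM RA (1 higher), with Thbs1 (thrombospondin, -0.39 ± 0.06 and -0.60 ± 0.06) and Vcan (versican, -0.27 ± 0.05 and -0.36 ± 0.05) lower and Fbln1 (fibulin) higher at both doses. The medians of these glycoproteins were -0.08 and -0.16. Of 9 tested matrix proteases and inhibitors, 3 were called at 25 nM and 5 at 1 µM RA, with medians of -0.04 and -0.07 and 2 higher at each dose. Mmp9, a gelatinase, rose from 0.128 and 0.142 RPKM in DMSO to 0.713 and 0.775 at 25 nM and 0.777 and 0.903 at 1 µM RA (2.46 ± 0.26 and 2.63 ± 0.26 on the log2 scale), and Mmp14, which sits in the membrane, fell at both doses.

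Markers of other cell types that make matrix were read in the same libraries. Extraembryonic endoderm, which makes much laminin and type IV collagen, was followed with 11 markers whose summed RPKM was 27.7 and 27.3 in DMSO, 22.7 and 22.5 at 25 nM and 21.7 and 23.8 at 1 µM RA. Of 10 tested, 2 were called at each dose (20%), both lower, against 8.05% of all genes tested at 25 nM and 19.7% at 1 µM RA. The share at 1 µM RA was thus close to that of all genes. The medians over the 10 were -0.19 and -0.15. The 2 called were Sox17 (-0.58 ± 0.07 and -0.98 ± 0.07), from 6.84 and 6.68 RPKM in DMSO to 3.53 and 3.34 at 1 µM RA, and Gata6 (-0.19 ± 0.06 and -0.14 ± 0.06). Gata4, which with Gata6 and Sox17 is also made by embryonic endoderm, lay between 5.19 and 6.42 RPKM. The markers Afp, Ttr, Sox7 and Thbd were at or below 0.447 RPKM in every library. Others of the list were higher, with Pth1r between 1.96 and 2.56 RPKM and Dab2 between 0.857 and 1.14. Amn lay between 0.491 and 0.802 RPKM and Cubn between 0.427 and 0.763. The sum was lower in all RA libraries, as Fn1, Lamb1 and Lama1 were. Other basement membrane genes went both ways. Col4a1 and Col4a2 were not called. Lamc1 lay above both DMSO libraries at 25 nM and below both at 1 µM RA, and the likelihood ratio test called neither change. Lama5 rose at 25 nM and overlapped DMSO at 1 µM RA. Lamb2 and 6 of the basement membrane partners, with Hspg2, Fras1 and Frem1 among them, were called lower at 1 µM RA, and Agrn was called higher. The part of endoderm cells in these results was not tested.

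Fibroblasts, which served as feeders for the ESCs, were followed with 12 markers other than collagens and Fn1. Their summed RPKM was 54.4 and 50.1 in DMSO, 59.4 and 54.4 at 25 nM and 56.1 and 58.2 at 1 µM RA, mostly from Tagln and Acta2. The markers Dcn and Lum were at or below 0.166 RPKM in every library, and Fap was listed at 0 in 5 of 6 libraries. Postn, Twist2, Prrx1 and S100a4 were at or below 0.4565 RPKM. Others of the list were higher, with Thy1 between 1.72 and 1.95, Fbln1 between 6.52 and 8.85 and Pdgfrb between 1.13 and 3.74 RPKM. Of 9 tested, 2 were called at 25 nM (22.2%), both higher, and 3 at 1 µM RA (33.3%), against 8.05% and 19.7% of all genes tested. Pdgfrb (1.44 ± 0.09 and 1.67 ± 0.09) and Fbln1 were higher at both doses, and Postn (-0.58 ± 0.25, adjusted p = 0.091) was lower at 1 µM RA. The quasi-likelihood test did not call Postn there (adjusted p = 0.13). The medians over the 9 were -0.02 and 0.06. The part of fibroblasts in the collagen results was not tested. The 7 NMP markers had a summed RPKM of 502.5 and 491.0 in DMSO and 543.4 to 565.4 in the RA libraries. T made up most of each sum and was not called at either dose (adjusted p = 0.98 and 0.77). Its means were 375.2 RPKM in DMSO, 375.1 at 25 nM and 370.2 at 1 µM RA. Of these 7, 6 were called at 25 nM (85.7%, 5 higher) and 5 at 1 µM RA (71.4%, 4 higher), against the same shares of all genes. Fgf8 was the one called lower at both doses. Genes called higher include some that the paper reports as activated by RA, so the sum does not measure the number of NMPs. Of the 6 pluripotency markers none was called at either dose by the likelihood ratio test, the quasi-likelihood test or DESeq2, and 0 had an unadjusted p under 0.05 there.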

How the data were processed

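Total RNA depleted of ribosomal RNA was sequenced by the authors from 6 libraries (TruSeq Stranded, 50-base single-end reads), aligned with TopHat2 2.0.13 and Bowtie2 2.2.5.0 to mm10 and quantified over RefSeq transcripts by expectation-maximization in Partek 6.6, after FastQC 0.11 (versions from the submitters' processing notes). The authors deposited estimated counts per transcript, not normalized, and RPKM values scaled by transcript length and library reads. The use of strand in counting is not given in the sources used here. Estimated counts and RPKM were summed per gene. RPKM gives levels (SD of 2 libraries).

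The counts per gene were rounded and modelled with edgeR 4.0.16 (R 4.3.3), using TMM normalization, filterByExpr and the likelihood ratio test of the study's methods, with Benjamini-Hochberg adjustment over 15143 genes. Groups came from the sample titles. Genes were named by a rule: Fn1, every gene called, the 3 highest of each family in DMSO, the 2 nearest to 60 counts on each side, their main partner chains, and up to 4 called genes of each list. Other genes named for a count of 5 or fewer, a marker level, an exon overlap or a length were chosen after their values were seen. The members and lists were chosen with earlier results of these data known. A further RA target gene is not reported here. In data simulated for 1 µM RA against DMSO over 15023 genes, the test called 73% of genes changed by 0.5 and 95% of those changed by 1 on the log2 scale, and 34 of its 202 calls were unchanged genes. That is a larger share than an adjusted p under 0.1 aims for. Only 100 genes were changed by each amount, and smaller changes, such as those of Lamb1 and Itga5, were not simulated. Alternatives were the quasi-likelihood test, DESeq2 1.42.0, its size factors, total counts, other filters, the 4 libraries compared only, a replicate block, transcripts as deposited, other thresholds and leaving out each library. Other software was Python 3.11.15, pandas 2.3.3, numpy 2.4.6 and matplotlib 3.10.9. Exon sequences and overlaps came from GENCODE M21 (GRCm38, the build of the files).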

Additional observations from a re-analysis of the deposited data

How the results depend on the processing

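The number of genes called moved by more than 1.5 times under some settings. DESeq2's Wald test called 5 at 25 nM, 10 at 1 µM and 2 between the doses, and the transcripts as deposited gave 6, 10 and 2, in place of 11, 19 and 7. Between the doses the quasi-likelihood test called 4 and an adjusted p under 0.05 left 3. Leaving out each library in turn gave 5 to 12 calls at 25 nM (5 without DMSO replicate 2, 6 without DMSO replicate 1), 13 to 19 at 1 µM and 1 to 5 between the doses, with 1 left without 25 nM replicate 1, 4 without 25 nM replicate 2 and 3 without either 1 µM library. The lone library of a group was then assumed to vary like the other groups. DESeq2's size factors, total counts, no filter, the filter of over 60 counts and the 4 libraries compared kept these counts within 1.5 times. No called log2 fold change turned its sign under any of these settings. The cause of the differences was not tested. With a mean RPKM over 1 in place of 60 counts, 27 of the 82 genes passed in place of 66, and with a mean over 0.1, 63 passed. In these genes 60 counts correspond to 0.0191 to 0.0837 RPKM, so that 1 RPKM is a much stricter cut-off.

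Libraries of different groups with the same replicate number did not deviate together (correlations of -0.0408, 0.0484 and -0.0615 over 15143 genes), so the number is not a pairing. With the replicate block the counts of calls were 11, 19 and 5, without Col5a1 and Lamc1 between the doses. With 2 dishes of 1 experiment per group the spread rests on few libraries, and genes with few reads, such as Itga2b, Lamb3 and Col10a1, limit what could be called.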
